A study of Homo sapiens with 4 samples.

Results

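The genes described here are 37 glycolysis and hypoxia response genes, all found by symbol among the 23577 genes of the table. Their list was drawn up with earlier results of these data known. Their RNA levels were read in 4 human leiomyosarcoma lines, which are established lines of a malignant tumour of smooth muscle type. The lines were RKN, SKLMS1, SKN and SKUT1, each untreated, grown in a serum-containing DMEM, and represented by 1 library of polyadenylated RNA. Each line was therefore a group of 1 sample. The labels name neither an oxygen condition nor a genetic alteration of the lines. Levels are FPKM, that is fragments counted per kilobase of transcript and scaled to the library. Differences are given in log2(FPKM + 1), where those of weakly expressed genes come out too small. With 1 library per line there is no replicate check, and no test, standard error or p-value was computed.

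Genes were kept for comparison if any line reached an FPKM of 1, as did 13713 genes, among them all 37 members. Of the members, 33 reached that level in every line. PFKFB4, EGLN3, ANGPTL4 and CA9 did not, and CA9 was kept through SKLMS1 alone. Read totals, estimated from the steps between low values, lay between 24600000 and 33400000, where 1 read on a transcript of 2 kb is worth an FPKM of 0.015 to 0.0203. Smooth muscle markers summed to an FPKM of 205 in RKN cells, 847 in SKLMS1, 98.4 in SKN and 6319 in SKUT1 cells. In SKUT1 the largest were TAGLN at 3816, CALD1 at 1246 and ACTA2 at 1085. CNN1 had 86.4 there, ACTG2 19.4 and LMOD1 14.9. SMTN was present in every line, between 22.9 in SKLMS1 and 45.6 in SKN. DES, the desmin gene, and MYH11, smooth muscle myosin, were at most 1.10 and 1.15 in all lines, and MYOCD, the coactivator of smooth muscle genes, reached 1 only in SKUT1, at 5.16. The defining markers of blood and endothelium PTPRC, CD3E, HBB, PECAM1 and CDH5 were at most 0.213. Other genes of those lists were present, TEK at 39.6 in SKUT1, KDR at 4.91 in SKN, and CD68 in every line, between 4.76 in RKN and 75.3 in SKUT1. Of the epithelial markers EPCAM and CDH1 were at most 1.80 and 1.20. The keratins were present in some lines, KRT8 between 1.99 in RKN and 268 in SKLMS1, KRT18 between 7.84 in RKN and 283 in SKN, and KRT19 between 0.342 in SKN and 146 in SKLMS1.

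Glycolysis splits glucose into pyruvate in the cytosol. Glucose enters through carriers, is phosphorylated and cleaved in the hexose phase, and yields ATP in the triose phase. Pyruvate then goes to the mitochondria or is reduced to lactate, which leaves the cell through monocarboxylate carriers. Many of these enzymes are targets of the hypoxia-inducible factors, whose alpha subunits HIF1A and EPAS1 (HIF-2 alpha) are hydroxylated by the EGLN enzymes in the presence of oxygen and then degraded. This control acts on the protein, so that the RNA of an alpha subunit does not measure its activity. Tumour cells commonly run glycolysis to lactate also when oxygen is present.

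Hypoxia-inducible factors bind DNA at a short core, and 1 form of it, ACGTG, was searched for on both strands in the 250 bases before the RefSeq start of each gene (assembly GRCh38.p14). Overlapping matches were merged, since the palindrome CACGTG, which is also the binding sequence of other factors, holds a match on each strand. Of the 37 members 33 had a window, and SLC2A3, SLC16A1, BNIP3L and NDRG1 had none. The letters occurred in 14 of the 33 windows (42.4%), in 23.4% of the 9828 windows of kept genes and in 18.5% of all 35116 windows. A match describes the letters and not binding, and many genes have further starts. The sequences of 6 members are printed 5′ to 3′ on the strand of the gene, with matches in capitals. LDHA, PGK1, ANKRD37, CA9 and ALDOC carry matches. LDHA and ANKRD37 were highest in SKUT1, PGK1 and CA9 in SKLMS1, and ALDOC in SKN. SLC16A3, the member with the widest range as deposited, had no match in its window.
LDHA (chr11:18394313-18394562, plus strand): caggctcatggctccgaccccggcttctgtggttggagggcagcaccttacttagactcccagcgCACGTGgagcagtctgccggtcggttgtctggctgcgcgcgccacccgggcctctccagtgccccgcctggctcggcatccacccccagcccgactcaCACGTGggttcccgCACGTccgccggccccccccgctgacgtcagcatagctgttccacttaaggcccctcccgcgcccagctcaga
PGK1 (chrX:78103998-78104247, plus strand): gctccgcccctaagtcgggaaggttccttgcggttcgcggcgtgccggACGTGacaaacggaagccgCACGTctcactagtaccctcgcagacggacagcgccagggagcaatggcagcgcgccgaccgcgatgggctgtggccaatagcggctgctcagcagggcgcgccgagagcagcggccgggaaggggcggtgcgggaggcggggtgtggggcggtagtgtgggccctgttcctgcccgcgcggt
ANKRD37 (chr4:185396591-185396840, plus strand): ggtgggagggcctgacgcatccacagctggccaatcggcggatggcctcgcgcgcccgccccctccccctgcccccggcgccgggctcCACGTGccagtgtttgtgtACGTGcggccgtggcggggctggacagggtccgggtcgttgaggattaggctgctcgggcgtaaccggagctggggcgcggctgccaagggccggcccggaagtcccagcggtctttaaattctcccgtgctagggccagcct
CA9 (chr9:35673678-35673927, plus strand): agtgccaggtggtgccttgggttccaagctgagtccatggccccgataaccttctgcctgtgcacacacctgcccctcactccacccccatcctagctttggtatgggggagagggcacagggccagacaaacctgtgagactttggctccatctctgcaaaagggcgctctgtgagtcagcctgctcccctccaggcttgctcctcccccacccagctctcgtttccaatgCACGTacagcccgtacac
ALDOC (chr17:28576896-28577145, minus strand): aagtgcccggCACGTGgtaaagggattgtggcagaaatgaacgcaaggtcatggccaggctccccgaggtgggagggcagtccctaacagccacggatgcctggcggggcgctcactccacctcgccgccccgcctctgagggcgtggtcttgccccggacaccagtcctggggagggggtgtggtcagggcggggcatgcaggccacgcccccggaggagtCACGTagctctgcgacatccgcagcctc
SLC16A3 (chr17:82228185-82228434, plus strand): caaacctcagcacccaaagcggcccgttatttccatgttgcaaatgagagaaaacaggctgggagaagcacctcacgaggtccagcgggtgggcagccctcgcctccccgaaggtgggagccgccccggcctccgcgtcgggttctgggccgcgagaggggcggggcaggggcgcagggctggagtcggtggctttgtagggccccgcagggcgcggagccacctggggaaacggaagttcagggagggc
LDHA held 3 sites, the nearest ending 69 bases before the start, and PGK1 and ANKRD37 held 2 each. In CA9 the single site ended 14 bases before the start. ALDOC held 2, the nearer ending 24 bases before it.

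Many of the members were low in RKN and few were high. In RKN 15 of the 37 were at least 2-fold lower than the mean of the other 3 lines (40.5%), against 16.6% of all kept genes, and 0 were at least 2-fold higher, against 11.6%. RKN was the lowest of the 4 lines for 21 members (56.8%), against 28.8% of kept genes. The median difference of the members was -0.66 in RKN and that of all kept genes -0.04. In bulk RNA, fewer cells that express a gene and less RNA per cell cannot be told apart. The counts rest on 1 library per line, and the members are mostly abundant genes, unlike the whole table. Because the members were chosen with earlier results of these data known, the contrast with all kept genes is not independent of the data.

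**Figure D1:**
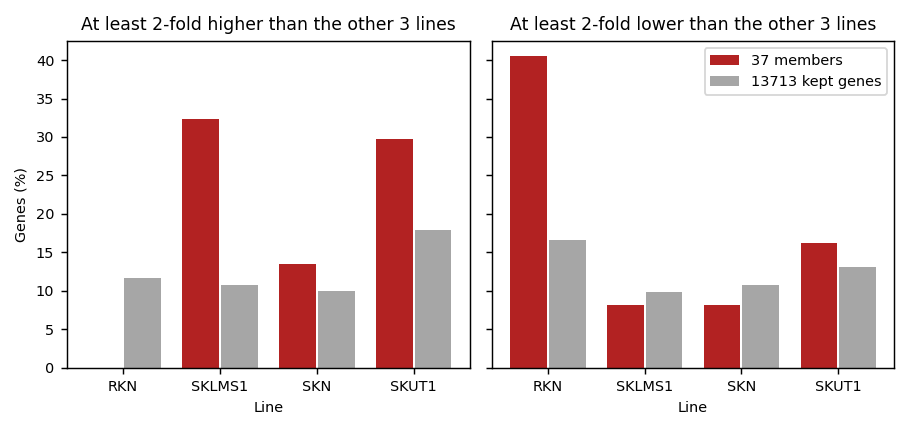
Percentage of genes at least 2-fold higher (left) or lower (right) in each line than the mean of the other 3 lines on the log2(FPKM + 1) scale, for the 37 members (red) and for all 13713 kept genes (grey), with 1 library per line. In RKN 40.5% of members were lower and 0 higher, and in SKLMS1 32.4% were higher and 8.11% lower.

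In SKLMS1 12 members were at least 2-fold higher (32.4%, against 10.7% of kept genes) and 3 lower (8.11%, against 9.83%), with a median of 0.58 against -0.06 for all kept genes. SKN lay near the whole table in these counts, with 5 members higher (13.5%, against 9.97%) and 3 lower (8.11%, against 10.8%). The median of the members in SKN was 0.23, against -0.05 for all kept genes. In SKUT1 11 were higher (29.7%, against 17.9%) and 6 lower (16.2%, against 13.1%). Its median was -0.06 while its mean was 0.28, so no direction is given for the members of SKUT1 as a group. Between their highest and lowest line 18 members were at least 4-fold apart (48.6%, against 26.7% of kept genes). As deposited, 8 stayed within 2-fold, a share that was not computed for all kept genes. On the TPM scale GPI, TPI1 and PGAM1 went past 2-fold, while PKM and BNIP3 came within it. The counts of higher members in the other lines lean on RKN. Without the RKN library 8 members were at least 2-fold higher in SKLMS1 (median 0.0838). In SKN 2 were then higher and 6 lower, and in SKUT1 6 were higher. The members at least 4-fold apart then numbered 12, against 11 without SKLMS1 and 10 without SKUT1. The shares of all kept genes were not computed with a library left out, so these counts cannot be set beside the whole table.

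The columns of the table have unequal sums, 446954 in RKN and 619584 in SKUT1. Rescaling each column to the same sum (TPM) moved the median difference of all kept genes by 0.28 in RKN cells, 0.10 in SKLMS1 cells, -0.05 in SKN cells and -0.29 in SKUT1 cells. Relative to all kept genes, the members' median was -0.62 in RKN as deposited and -0.73 on the TPM scale. It was 0.64 and 0.66 in SKLMS1, and 0.28 and 0.31 in SKN. On the TPM scale 11 members were at least 2-fold lower in RKN (29.7%, against 15.5% of kept genes) and 1, PFKM, was higher (2.70%, against 20.5%), and in SKUT1 7 were higher (18.9%, against 15% of kept genes) and 7 lower (18.9%, against 22.9%).

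**Figure D2:**
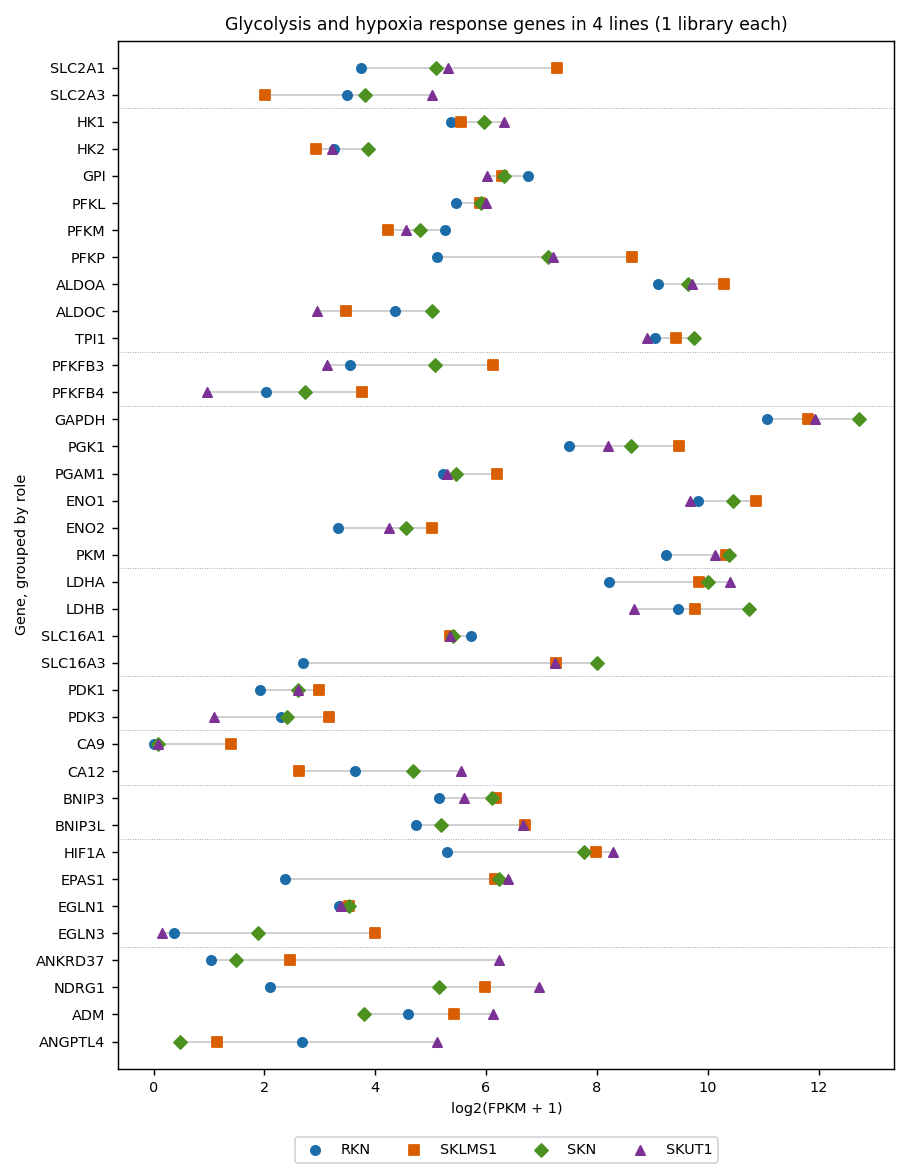
Level of each of the 37 genes in the 4 lines as log2(FPKM + 1), with 1 point per library and a grey bar from the lowest to the highest line. Dotted lines separate the roles, from glucose carriers at the top to hypoxia targets at the bottom. SLC16A3, ANKRD37 and NDRG1 have the longest bars, and EGLN1 and SLC16A1 the shortest.

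The glucose carriers separated SKLMS1 from the rest in opposite directions. SLC2A1 (GLUT1), the carrier of basal uptake in many cells and a hypoxia target, had an FPKM of 154 in SKLMS1 cells, against 12.3 in RKN cells, 33.3 in SKN and 38.7 in SKUT1 cells. It was higher in SKLMS1 by 2.57 than in the mean of the other lines, and its difference in RKN was -2.16. SLC2A3 (GLUT3), a carrier of high affinity, had 3.03 in SKLMS1 cells, against 10.3 in RKN cells, 13.1 in SKN and 31.4 in SKUT1 cells. Its difference in SKLMS1 was -2.10, so that SKLMS1 was the highest line for SLC2A1 and the lowest for SLC2A3. SLC2A3 and its near copy SLC2A14 share sequence, and the split of their reads is uncertain.

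In the hexose phase most enzymes were close together and the platelet-type phosphofructokinase was not. HK1, the widely expressed hexokinase, lay between 40.1 and 78.9, and HK2, the inducible hexokinase, between 6.67 and 13.7. GPI, which turns glucose 6-phosphate into fructose 6-phosphate, ran from 63.8 to 107, and PFKL, the liver-type phosphofructokinase, from 42.7 to 62.6. All 4 stayed within 2-fold over the lines as deposited, and on the TPM scale GPI went past it, with a range of 1.21.

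PFKP, the platelet-type phosphofructokinase of the committed step, had an FPKM of 33.8 in RKN cells, 397 in SKLMS1, 138 in SKN and 148 in SKUT1 cells. SKLMS1 was the high line (difference 2.15) and RKN the low one (-2.53), with SKN and SKUT1 together between them. PFKM, the muscle type, went the other way, with 37.3 in RKN cells, 17.6 in SKLMS1, 27.0 in SKN and 22.6 in SKUT1 cells. PFKP thus made up 29.7% of the summed FPKM of the 3 phosphofructokinase genes in RKN cells, 84.0% in SKLMS1, 61.6% in SKN and 63.4% in SKUT1 cells. This share is computed within a library and does not depend on the scaling.

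Aldolase and triose phosphate isomerase close the hexose phase. ALDOA, the main aldolase, had 547 in RKN cells, 1259.6 in SKLMS1, 794 in SKN and 844 in SKUT1 cells, a range of 1.20 on the log2(FPKM + 1) scale. ALDOC, the brain-type aldolase, was far less abundant and was highest in SKN at 31.5, against 19.5 in RKN, 10.1 in SKLMS1 and 6.72 in SKUT1. SKN and SKUT1 were 4.21-fold apart for ALDOC on the log2(FPKM + 1) scale. TPI1, which interconverts the triose phosphates, lay between 477 in SKUT1 and 863 in SKN.

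The bifunctional enzymes that set fructose 2,6-bisphosphate, the activator of phosphofructokinase, split the lines in the same order for both genes. PFKFB3 had 68.3 in SKLMS1 cells, 32.7 in SKN, 10.7 in RKN and 7.70 in SKUT1 cells. PFKFB4 had 12.6 in SKLMS1 cells, 5.61 in SKN, 3.09 in RKN and 0.957 in SKUT1 cells. Both were at least 2-fold higher in SKLMS1 than the mean of the other lines (2.20 for PFKFB3 and 1.86 for PFKFB4) and at least 2-fold lower in SKUT1 (-1.79 and -1.87). Both genes are known hypoxia targets in other cells, and SKUT1, the lowest line here, was the highest for ANKRD37, NDRG1, ADM and ANGPTL4.

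The triose phase held the most abundant members. GAPDH, which makes 1,3-bisphosphoglycerate and is often taken as a constant reference gene, had 2151 in RKN cells, 3564 in SKLMS1, 6797 in SKN and 3932 in SKUT1 cells. It was 3.16-fold apart between SKN and RKN and made up 0.481% of the summed FPKM of all genes in RKN and 1.26% in SKN. PGK1, the first ATP-forming enzyme, had 710 in SKLMS1 cells, against 179 in RKN cells, 392 in SKN and 292 in SKUT1 cells. SKLMS1 was high (1.37) and RKN low (-1.27) for PGK1, a range of 1.98 that falls just short of 4-fold.

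The remaining triose genes include the enolases and pyruvate kinase. ENO1, the main enolase, had 901 in RKN cells, 1865 in SKLMS1, 1400.0 in SKN and 818 in SKUT1 cells. ENO2, the neuronal enolase, was 9.07 in RKN cells, 31.6 in SKLMS1, 22.5 in SKN and 18.0 in SKUT1 cells, and RKN was lower by more than 2-fold (-1.28). PKM, which makes pyruvate, had 604 in RKN cells, against 1289 in SKLMS1 cells, 1328 in SKN and 1114 in SKUT1 cells. PGAM1, which shares its sequence with PGAM4, lay between 36.4 and 71.9. Of the 6 triose genes GAPDH, PGK1, ENO2 and PKM were at least 2-fold lower in RKN. On the TPM scale only ENO2 was, with the other 3 at differences of -0.79, -0.98 and -0.74.

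As a share of all genes, the 17 enzymes from hexokinase to lactate dehydrogenase made up 1.40% of the summed FPKM in RKN cells, 2.41% in SKLMS1, 2.75% in SKN and 1.56% in SKUT1 cells. Without GAPDH the shares were 0.916% in RKN cells, 1.68% in SKLMS1, 1.49% in SKN and 0.928% in SKUT1 cells. SKLMS1 and SKN were thus the lines with the larger shares on both counts. Among kept genes, 8 members (ALDOA, TPI1, GAPDH, PGK1, ENO1, PKM, LDHA and LDHB) stood at or above the 97.4 percentile in every line. Several of these genes have processed pseudogenes, and reads may be split between the copies.

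The balance of the lactate dehydrogenase subunits differed between the lines. LDHA, the M subunit and a hypoxia target, had 296 in RKN cells, 919.8 in SKLMS1, 1026 in SKN and 1351 in SKUT1 cells. LDHB, the H subunit, had 700.5 in RKN cells, 875 in SKLMS1, 1721 in SKN and 404 in SKUT1 cells. LDHB was 70.3% of the pair in RKN cells, 48.7% in SKLMS1, 62.7% in SKN and 23.0% in SKUT1 cells. RKN had the lowest LDHA (-1.87) and SKUT1 the lowest LDHB (-1.33), which puts these lines at the ends of the range.

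The lactate carriers include the member with the widest range as deposited (5.30 for SLC16A3, against 5.20 for ANKRD37), whereas on the TPM scale ANKRD37 had 5.18 and SLC16A3 5.16. SLC16A3 (MCT4), the carrier of lactate export in glycolytic cells and a hypoxia target, had 5.49 in RKN cells, against 153 in SKLMS1 cells, 255 in SKN and 151 in SKUT1 cells. RKN lay 4.55 below the next line, and the highest and lowest lines were 39.5-fold apart on the log2(FPKM + 1) scale. SLC16A1 (MCT1), a carrier for both import and export, was 52.0 in RKN cells, 39.7 in SKLMS1, 41.2 in SKN and 39.7 in SKUT1 cells. SLC16A3 was 9.55% of the pair in RKN, against 79.2 to 86.1% elsewhere.

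**Figure D3:**
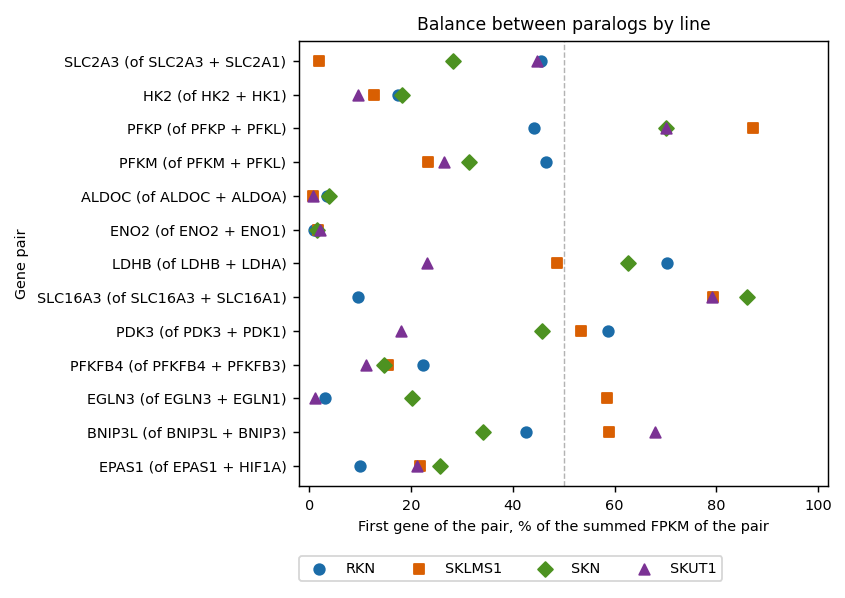
Share of the first gene in the summed FPKM of 13 pairs of paralogs, in percent, with 1 point per line and a dashed line at 50%. RKN stands apart for SLC16A3 (9.55%) and PFKP, SKUT1 for LDHB (23.0%) and PDK3, and SKLMS1 for EGLN3 and SLC2A3. CA12 and CA9 are left out because CA9 is listed at 0 in RKN.

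PDK1 and PDK3 are pyruvate dehydrogenase kinases, which hold pyruvate back from the mitochondria. PDK2, a kinase outside the member list, was above both in every line. It had 18.1 in RKN cells, 13.2 in SKLMS1, 7.80 in SKN and 15.3 in SKUT1 cells. PDK1, a hypoxia target, had 2.78 in RKN cells, 6.95 in SKLMS1, 5.12 in SKN and 5.09 in SKUT1 cells. PDK3 had 3.94 in RKN cells, 7.95 in SKLMS1, 4.31 in SKN and 1.12 in SKUT1 cells, higher in SKLMS1 (1.23) and lower in SKUT1 (-1.54). PDK3 made up 18.0% of this pair in SKUT1 and 45.7 to 58.6% in the other lines.

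Of the carbonic anhydrases at the cell surface, which help to buffer exported acid, the gene more tightly tied to hypoxia was at or near 0 in 3 lines. CA9, a classical marker of hypoxia in tumours, had 1.64 in SKLMS1 cells, against 0.0584 in SKN cells and 0.0606 in SKUT1 cells. It was listed at 0 in RKN, where an exact 0 can also be a failed estimate. CA12 had 45.9 in SKUT1 cells, 24.8 in SKN, 11.3 in RKN and 5.18 in SKLMS1 cells. SKLMS1, the only line with CA9 above 1, was the lowest for CA12 (-1.99), and SKUT1 was the highest (1.91).

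BNIP3 and BNIP3L mark mitochondria for removal and are both hypoxia targets. BNIP3 had 34.6 in RKN cells, 71.6 in SKLMS1, 68.3 in SKN and 47.4 in SKUT1 cells. No line was 2-fold from the mean of its other lines, while SKLMS1 and RKN were 2.04-fold apart on the log2(FPKM + 1) scale. BNIP3L had 25.7 in RKN cells, 103 in SKLMS1, 35.4 in SKN and 101 in SKUT1 cells. RKN was lower (-1.45) and SKLMS1 (1.16) and SKUT1 (1.13) higher than the mean of their other lines, with RKN and SKN low and the other pair high. Without the RKN library the difference was 0.76 for SKLMS1 and 0.73 for SKUT1, both short of 2-fold.

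The RNA of both HIF alpha subunits was low in RKN. HIF1A, the alpha subunit found in most cells, had 38.1 in RKN cells, against 254 in SKLMS1 cells, 216 in SKN and 312 in SKUT1 cells. EPAS1 had 4.19 in RKN cells, against 70.5 in SKLMS1 cells, 74.5 in SKN and 83.7 in SKUT1 cells. The other 3 lines lay within 0.53 of each other for HIF1A and within 0.24 for EPAS1, while RKN lay 2.47 and 3.78 below the next line. The differences of RKN were -2.73 for HIF1A and -3.89 for EPAS1, and -2.45 and -3.75 on the TPM scale.

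The EGLN enzymes, which mark the HIF alpha subunits for degradation, behaved unlike each other. EGLN1 (PHD2), the main oxygen sensor, had the smallest range of the members as deposited (on the TPM scale PFKL did), with 9.18 in RKN cells, 10.5 in SKLMS1, 10.6 in SKN and 9.47 in SKUT1 cells. EGLN3 (PHD3), itself a strong hypoxia target, had 14.8 in SKLMS1 cells, against 0.282 in RKN cells, 2.69 in SKN and 0.114 in SKUT1 cells. EGLN3 was higher in SKLMS1 by 3.19 than the mean of the other lines, and it made up 58.5% of the EGLN1 and EGLN3 pair there, 20.3% in SKN, 2.99% in RKN and 1.19% in SKUT1.

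The last members are hypoxia targets outside metabolism or at its edge, and all 4 were highest in SKUT1. ANKRD37, an ankyrin repeat protein, had 74.4 in SKUT1 cells, against 1.05 in RKN cells, 4.50 in SKLMS1 and 1.81 in SKN cells. NDRG1, a stress-responsive growth regulator, had 123 in SKUT1 cells, 62.3 in SKLMS1, 34.3 in SKN and 3.27 in RKN cells. The ANKRD37 difference in SKUT1 was 4.58, the widest upward difference among the members, and RKN was low for both genes (-2.36 and -3.93).

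ADM, the precursor of the vasodilator adrenomedullin, had 68.5 in SKUT1 cells, against 23.0 in RKN cells, 41.8 in SKLMS1 and 12.9 in SKN cells. ANGPTL4, a secreted inhibitor of lipoprotein lipase, had 33.5 in SKUT1 cells, against 5.41 in RKN cells, 1.21 in SKLMS1 and 0.398 in SKN cells. SKN was the lowest line for both (-1.58 for ADM and -2.49 for ANGPTL4). For ANGPTL4 RKN was second, unlike its place for ANKRD37 and NDRG1. Beside these values, all 10 proliferation markers were at least 2-fold lower in SKUT1 than elsewhere on average (summed FPKM 283 in SKUT1 cells, 1421 in RKN, 1419.99 in SKLMS1 and 1376 in SKN cells), and their part in the results was not tested.

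**Figure D4:**
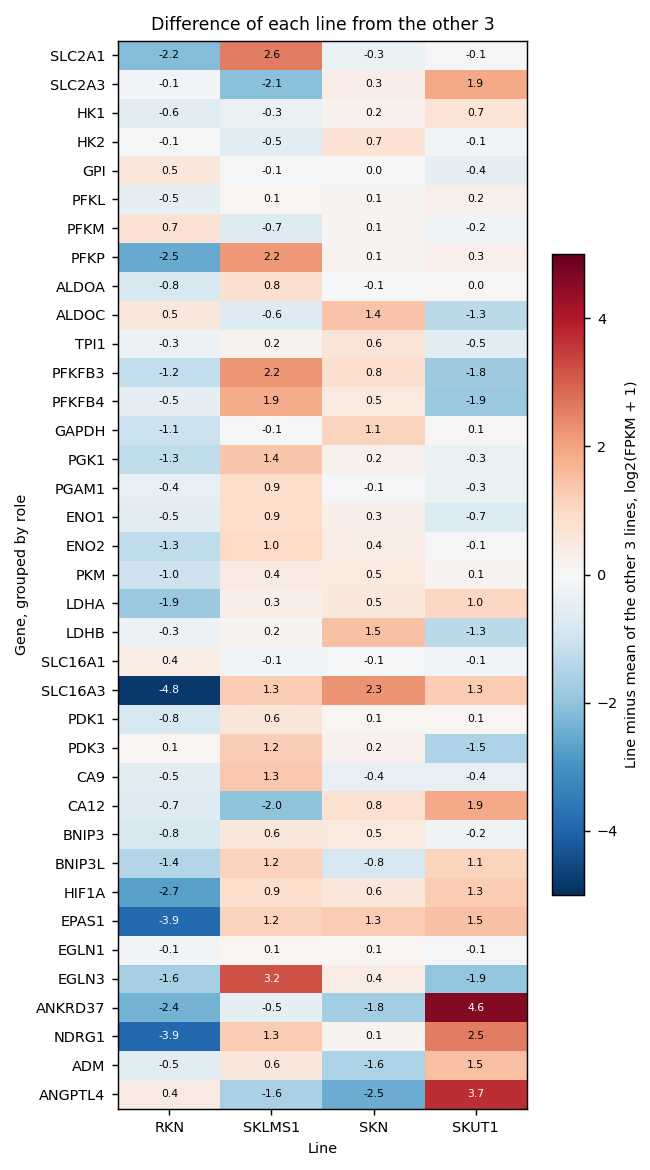
Difference of each line from the mean of the other 3 lines for the 37 genes, in log2(FPKM + 1), with red for higher and blue for lower and the value printed in each cell (1 library per line). The RKN column is mostly blue, with -4.8 for SLC16A3, and the SKUT1 column holds both the reds of ANKRD37 (4.6) and NDRG1 and the blues of PFKFB3, PFKFB4 and EGLN3.

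Set line against line, the members separated RKN from each other line mainly in 1 direction. Comparing RKN with SKLMS1, 0 members were at least 4-fold higher in RKN (3.46% of kept genes were) and 8 in SKLMS1 (21.6%, against 6.33%), namely SLC2A1, PFKP, PFKFB3, SLC16A3, HIF1A, EPAS1, EGLN3 and NDRG1. Comparing RKN with SKUT1, 0 were higher in RKN (against 5.03%) and 8 in SKUT1 (21.6%, against 10.2%), namely PFKP, LDHA, SLC16A3, HIF1A, EPAS1, ANKRD37, NDRG1 and ANGPTL4. On the TPM scale PFKP and LDHA fell short of 4-fold in that pair and the other 6 members were past it (16.2%, against 9.87%). RKN and SKN differed in ANGPTL4, higher in RKN (2.70%, against 3.86%), and in SLC16A3, HIF1A, EPAS1 and NDRG1, higher in SKN (10.8%, against 5.78%). These comparisons share the RKN library.

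SKLMS1 and SKUT1 differed in both directions. PFKFB3, PFKFB4, PDK3 and EGLN3 were at least 4-fold higher in SKLMS1 (10.8%, against 4.79% of kept genes), and SLC2A3, CA12, ANKRD37 and ANGPTL4 in SKUT1 (10.8%, against 7.28%). SKN and SKUT1 differed in ALDOC and LDHB, higher in SKN (5.41%, against 4.40%), and in ANKRD37, ADM and ANGPTL4, higher in SKUT1 (8.11%, against 7.69%). SKLMS1 and SKN differed least, with SLC2A1 and EGLN3 higher in SKLMS1 (5.41%, against 4.30%) and CA12 in SKN (2.70%, against 3.60%). For SKLMS1 with SKN the shares are close to those of all kept genes. For SKN with SKUT1 they are close as deposited, but on the TPM scale PFKFB3, PFKFB4 and EGLN3 join ALDOC and LDHB as higher in SKN, 5 members in all (13.5%, against 6.55%).

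Other genes of the same pathways did not all share the RKN pattern. They were listed by role, but with earlier results of these data already known. Of 16 kept glycolysis isoenzymes and carriers, 5 were at least 2-fold lower and 1 higher in RKN, with a median of -0.04, and on the TPM scale 5 were lower and 4 higher. For this list and those below, 16.6% of all kept genes were lower and 11.6% higher in RKN. On the TPM scale these shares were 15.5% and 20.5%. HKDC1, a hexokinase relative, had 26.2 in SKLMS1 and at most 2.89 elsewhere, and ENO3, the muscle enolase, had 22.1 in SKN and at most 2.01 elsewhere. BPGM, which makes 2,3-bisphosphoglycerate, had 57.5 in SKUT1 and at most 16.5 elsewhere. The glucose carrier gene SLC2A8 had 0.452 in SKUT1 and at least 8.61 elsewhere.

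The genes around the mitochondrial use of pyruvate lay near the whole table in RKN. Of 12 genes of pyruvate import and dehydrogenation, 1 was lower and 1 higher in RKN (median 0.01), and of 22 genes of the tricarboxylic acid cycle 2 were lower and 2 higher (median -0.20). On the TPM scale 0 of the 12 were lower and 1 higher, and 2 of the 22 were lower and 4 higher. MPC2, a subunit of the mitochondrial pyruvate carrier, had 16.4 in SKN and at least 37.6 elsewhere, and DLAT, a pyruvate dehydrogenase subunit, had 4.42 in SKLMS1 and at least 13.3 elsewhere. ME1, the cytosolic malic enzyme, had 0.00894 in RKN and at least 10.1 elsewhere. IDH2, a mitochondrial isocitrate dehydrogenase, had 174 in SKLMS1 and at most 53.7 elsewhere.

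In the pentose phosphate branch several genes were high in SKLMS1. Of 10 pentose phosphate genes 4 were at least 2-fold higher in SKLMS1 and 0 lower, against 10.7% and 9.83% of kept genes. TKT, transketolase, had 570.0 in SKLMS1 and at most 175 elsewhere. In RKN 3 of the 10 were higher and 2 lower (median -0.31), against 11.6% and 16.6% of kept genes. Of 15 genes of gluconeogenesis and glycogen, 7 were lower and 2 higher in RKN with a median of 0.07, and on the TPM scale 4 were lower and 3 higher. In SKLMS1 2 of the 15 were higher and 1 lower. PPP1R3C, which brings a phosphatase to glycogen, had 80.6 in SKUT1 cells, 17.3 in SKLMS1, 0.576 in RKN and 0.0831 in SKN cells. GBE1, the glycogen branching enzyme, had 106 in SKUT1 and at most 33.6 elsewhere.

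The partners and regulators of HIF lay near the whole table in RKN, and more of its reported targets were low there. Of 15 partners and turnover genes 1 was lower and 0 higher in RKN (median 0.06), the lower gene being CITED2, a competitor of HIF for its coactivator, with 11.9 in RKN cells, 60.0 in SKLMS1, 13.6 in SKN and 276 in SKUT1 cells. VHL, the ligase subunit that removes hydroxylated HIF, lay between 8.77 and 26.3. In SKN 2 of the 15 were lower and 0 higher (median -0.33), and in SKLMS1 0 were lower and 2 higher. Of 49 further hypoxia targets 19 were at least 2-fold lower and 3 higher in RKN (median -0.65), 20 higher and 3 lower in SKLMS1 (median 0.55), 5 higher and 9 lower in SKN (median -0.26), and 16 higher and 9 lower in SKUT1 (median 0.23). On the TPM scale the counts in RKN were 18 lower and 7 higher. Of all kept genes as deposited, 16.6% were lower and 11.6% higher in RKN, and 10.7% higher and 9.83% lower in SKLMS1. In SKN 9.97% were higher and 10.8% lower, and in SKUT1 17.9% were higher and 13.1% lower.

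Among the further targets with a wide range are genes of matrix and secretion. IGFBP3, an IGF-binding protein, had 1.39 in RKN cells, 1230.5 in SKLMS1, 6.96 in SKN and 3096 in SKUT1 cells. LOX, the collagen cross-linking oxidase, had 0.375 in RKN and 953 in SKUT1, and STC2, a secreted glycoprotein, 2.25 in RKN and 564 in SKUT1. For these 3 genes RKN was the lowest and SKUT1 the highest line, and smooth muscle markers were also summed highest in SKUT1 (6319). Their part in the results was not tested.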

How the data were processed

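The authors deposited 1 table of FPKM values per gene symbol, with a column for each of the 4 lines. Per the submitters' processing notes, STAR and Cufflinks were used with the build hg19. The sources used here give no version, annotation, strand setting or filter. Per the labels' protocols, libraries were made from polyadenylated RNA with a stranded kit and read single-end. Of 23610 rows, 28 with a date number as symbol and 5 with a spreadsheet error were left out.

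Levels were compared as log2(FPKM + 1) among the 13713 genes that reached an FPKM of 1 in any line. Each line was set against the mean of the other 3, members at 2-fold or more were counted beside all kept genes, and no test was possible with 1 library per line. The table holds no counts, so that depth was estimated from low values of genes with 1 transcript in GENCODE 29, assuming fragments of 200 bases. For 357 to 398 genes 60.8 to 64.6% of low values lay within 0.1 of a whole read, and no counts were recovered. Precision is therefore limited by the number of libraries and by depth for low genes.

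The text names all 37 members and, from each other list, the 4 genes of widest range that reach an FPKM of 10 in any line. Of these, 2 genes are not reported here. Members and lists were chosen with earlier results of these data known. The code was tested on simulated data. Alternatives were pseudocounts of 0.1 and 5, no filter or a minimum FPKM of 5, TPM, median-of-ratios scaling, and leaving out each comparison line. Python 3.11.15 with pandas 2.3.3 was used.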

Additional observations from a re-analysis of the deposited data

How the results depend on the processing

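No paired analysis was possible because each line has 1 library. The counts and medians of members kept their values within 1.5 times or 0.25 with median-of-ratios scaling, without a filter, with a minimum FPKM of 5 (36 members) and with a pseudocount of 0.1. With a pseudocount of 5 the members lower in SKUT1 were 3 in place of 6. Those higher in SKLMS1 were then 8 in place of 12, and those at least 4-fold apart 14 in place of 18. On the TPM scale the members higher in RKN were 1, those higher in SKUT1 7, and the SKUT1 median -0.38.

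Leaving out 1 comparison line at a time gave these ranges for the members, with no shares of all kept genes computed. In RKN 0 to 1 members were higher and 13 to 15 lower, with medians of -0.87 to -0.66. In SKLMS1 8 to 15 were higher and 3 to 4 lower (medians 0.0838 to 0.74, the lowest without RKN). In SKN 2 to 9 were higher and 2 to 6 lower (medians 0.0215 to 0.64), with 2 higher and 6 lower without RKN. In SKUT1 6 to 12 were higher and 4 to 6 lower, 6 higher without RKN, and the median of -0.06 ran from -0.24 to 0.30, at 0.07 without SKN and 0.30 without SKLMS1. Members at least 4-fold apart numbered 10 to 15, with 12 without RKN, 11 without SKLMS1 and 10 without SKUT1, as fewer lines give narrower ranges.

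Without RKN the differences of 3 genes in SKLMS1 turned negative, with ranges of -0.36 to 2.29 for SLC16A3, -0.16 to 1.85 for EPAS1 and -0.0611 to 2.37 for NDRG1. The same held for EPAS1 in SKN (-0.0442 to 1.97) and SLC16A3 in SKUT1 (-0.38 to 2.27). These genes were counted as higher there because RKN was low.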
